A study of Rattus norvegicus with 6 samples.

Results

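The non-collagen extracellular matrix was examined in cultured spinal cord neurons after knockdown of galectin-3 (GAL3), using 39 genes chosen by symbol, with earlier results of these data known. They encode elastic fibre proteins, crosslinking enzymes, adhesive and matricellular proteins, small leucine-rich proteoglycans and basement membrane proteins. The deposited matrix of 17648 genes listed 37 of them, and 25 reached a mean of 1 across the 6 libraries and were tested among 8495 genes. MFAP4 and HSPG2 were not found under their symbols or synonyms.

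The cells came from the spinal cords of neonatal Sprague-Dawley rats, were treated with Ara-C to raise neuron purity, and were cultured for 3 days before injury. Both groups are described by the paper and the design text as injured with 10 μM glutamate for 1 h followed by 16 h without it, and each was transfected with a small interfering RNA (siRNA). The Glu + siR-Con group (n = 3) received a control siRNA and the Glu + siR-GAL3 group (n = 3) an siRNA against GAL3. The treatment label of the siR-Con samples instead names saline with control transfection, and that of the siR-GAL3 samples names a knockout. If those labels are right, glutamate and the siRNA cannot be told apart. The paper says of its data in general that they came from independent repeats, and the sample labels do not say whether the 3 libraries of a group came from separate cultures. If they did not, p-values measure technical spread only.

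An elastic fibre is a core of crosslinked elastin (ELN) laid on a scaffold of fibrillin microfibrils, and lysyl oxidases form its crosslinks. A basement membrane is a sheet built on laminins, trimers of an alpha, a beta and a gamma chain that nidogens tie to type IV collagen. In nervous tissue, basement membranes lie under the meninges and around vessels. Small leucine-rich proteoglycans bind collagen fibrils, and matricellular proteins act on cells rather than building fibres.

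The chains LAMA2, LAMB1 and LAMC1 together form a laminin trimer of muscle and peripheral nerve, and all 3 had an unadjusted p under 0.05 in the comparison below. The 250 bases before their starts are shown because these chains, of 6 laminin chains with lower means in siR-GAL3, were under that threshold. In siR-GAL3 2 they did not move together. This library was the lowest of its group for LAMA2 (0.782) and LAMC1 (13.2) and the highest for LAMB1 (2.90). The sequences are those of RefSeq for the rat assembly GRCr8, 5′ to 3′ on the strand of the gene, and capitals mark GGGCGG on either strand, the core of the GC box bound by Sp1. LAMA2 lies on the plus strand at chr1:19491896-19492145, LAMB1 on the plus strand at chr6:53562846-53563095 and LAMC1 on the minus strand at chr13:68051987-68052236.
LAMA2: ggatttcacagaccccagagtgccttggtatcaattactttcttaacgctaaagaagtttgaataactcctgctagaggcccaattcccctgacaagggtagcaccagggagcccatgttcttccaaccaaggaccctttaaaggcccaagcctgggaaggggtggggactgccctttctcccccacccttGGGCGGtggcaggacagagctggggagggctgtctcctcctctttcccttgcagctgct
LAMB1: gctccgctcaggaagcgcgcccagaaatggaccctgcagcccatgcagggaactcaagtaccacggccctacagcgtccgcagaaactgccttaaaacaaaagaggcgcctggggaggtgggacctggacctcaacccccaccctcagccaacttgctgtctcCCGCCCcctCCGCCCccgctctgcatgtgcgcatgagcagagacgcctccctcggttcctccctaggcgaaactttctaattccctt
LAMC1: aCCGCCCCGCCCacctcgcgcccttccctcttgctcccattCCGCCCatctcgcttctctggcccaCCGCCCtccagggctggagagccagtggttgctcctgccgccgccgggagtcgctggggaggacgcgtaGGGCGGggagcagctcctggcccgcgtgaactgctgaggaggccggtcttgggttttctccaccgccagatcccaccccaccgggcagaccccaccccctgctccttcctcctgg
LAMA2 held 1 match, LAMB1 2 and LAMC1 5, counting matches that share a base. Of the 39 genes, 26 matched a promoter in the table, and 14 of these (53.8%) held the motif, beside 30.5% of all 33469 promoter windows of this length. CCAAT on either strand was in 8 of the 26 (30.8%), LAMA2 among them, and in 34.0% of all windows. TATAAA on either strand was in 3 of the 26 (11.5%) and in 12.9% of all windows. The windows counted as all were not limited to genes of the matrix or to genes tested, so these shares set unlike groups of genes side by side. The matches are descriptions of letters, and ELN was among the genes for which no promoter was matched.

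The values were linear expression levels that the authors derived from FPKM, which is scaled by gene length. They were corrected afterwards and are not plain FPKM, so comparisons of level between different genes are approximate. The sequencing depth is unknown, and every SD is the spread left after the authors corrected differences within groups. The p-values and 95% intervals rest on that same corrected spread. The targeted gene, LGALS3, lay at 77.4, 54.4 and 62.4 in the siR-Con libraries and at -1.64, 32.3 and 18.5 in the siR-GAL3 libraries. Exactly equal values placed siR-Con 1 with siR-GAL3 1 and siR-Con 2 and 3 with siR-GAL3 3, while siR-GAL3 2 stood alone and lay apart on the first principal component (27.88, beside -8.52 to -1.94 in the others). The results below are therefore also given without siR-GAL3 2. The label of spinal cord neurons was checked against markers: the neuronal MAP2 lay at 17.4 ± 1.36 in siR-Con (SD, n = 3), whereas astrocytic GFAP lay at 655 ± 94.6 and MBP of myelin at 656 ± 31.6 (SD, n = 3). Of 20 neuron markers 7 reached a mean of 1, and NEFH, SLC17A6, CHAT, ISL1 and MNX1 were below 0.1, so the defining motor neuron markers were nearly absent.

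Most of the matrix genes tested were lower in the Glu + siR-GAL3 group, and ELN was the exception that stood highest. Of the 25 genes, 21 were lower and 4 were higher. With limma on log2(value + 1), 7 were lower at an unadjusted p under 0.05 (LAMA2, EMILIN1, SPARCL1, FBLN1, POSTN, LAMB1 and LAMC1), where 4.25% of all genes tested were. ELN was the 1 gene higher at that threshold, beside 4.41% of all genes. The median log2 fold change was -0.20 (quartiles -0.38 and -0.054), and that of all genes tested was 0.00.

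Groups did not overlap in 12 of the 25 genes, 11 of them lower, where 10.3% of all genes lay apart in the lower direction and 10.3% in the higher. The 2-sided exact permutation p of each of these was 0.1, the smallest that 3 libraries against 3 allow. None of the 25 had a Benjamini-Hochberg adjusted p under 0.05 in limma, and neither did any of the 8495 genes (0.0%). None combined |log2 fold change| > 1 and an unadjusted p under 0.05, as 0.318% of all genes did. These criteria are those the paper gives for its limma analysis of other injury datasets, while its supplement sets an adjusted threshold from DESeq, a test of counts that could not be run on these values. The 8 genes under the unadjusted threshold became 4 without siR-Con 2, 4 without siR-Con 3 and 13 without siR-GAL3 2. In the fit without siR-GAL3 2 the shares of all genes also rose, to 9.36% lower and 6.98% higher.

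**Figure D1:**
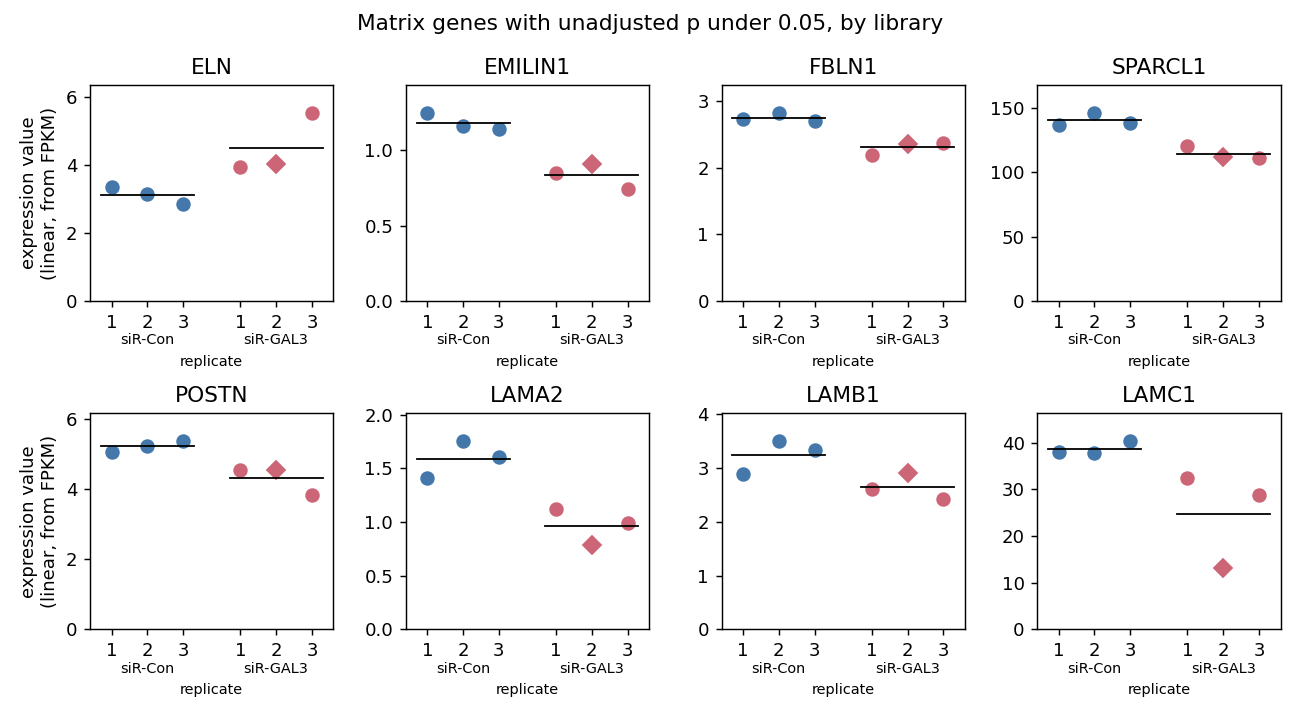
Expression values (linear scale, from FPKM, vertical axes from 0) of the 8 matrix genes with an unadjusted p under 0.05, by library (horizontal axes, replicates 1 to 3 of siR-Con in blue and of siR-GAL3 in red). Black lines are group means and the diamond is siR-GAL3 replicate 2. ELN was higher in every siR-GAL3 library, LAMB1 groups overlapped, and siR-GAL3 replicate 2 held the lowest LAMC1 value, 13.2.

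ELN, the elastic protein itself, lay at 3.34, 3.15 and 2.86 in the siR-Con libraries and at 3.94, 4.04 and 5.52 in the siR-GAL3 libraries. Every siR-GAL3 library was above every siR-Con library, and siR-GAL3 3 was the highest. The mean was 3.12 ± 0.242 in siR-Con and 4.50 ± 0.887 in siR-GAL3 (SD, n = 3 each), 44.3% higher. On log2(value + 1) the fold change was 0.41 (95% interval 0.12 to 0.69, unadjusted p = 0.0116, Benjamini-Hochberg adjusted p = 0.402 in limma). The fold change stayed between 0.28 and 0.48 with each library left out in turn, with an unadjusted p under 0.05 in all 6 of these fits. Without siR-GAL3 2, the library that stood apart, it was 0.47.

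Among the other elastic fibre genes, EMILIN1 and FBLN1 were lower. The group held 14 genes, of which 13 were listed and 5 tested, and these 5 comprised ELN, EFEMP2 and MFAP2 with higher means and FBLN1 and EMILIN1 with lower ones. Their median log2 fold change was 0.073.

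EMILIN1, a glycoprotein at the border of elastin and microfibrils, lay at 1.25, 1.16 and 1.14 in siR-Con and at 0.849, 0.906 and 0.742 in siR-GAL3. The groups did not overlap, and the mean was 29.6% lower. The log2 fold change was -0.25 (95% interval -0.39 to -0.11, unadjusted p = 0.0039, adjusted p = 0.267 in limma), and the unadjusted p was under 0.05 in all 6 fits that left out a library. It had the lowest mean of the 25 genes tested, 1.01, just above the minimum of 1. EMILIN1 reached that minimum through siR-Con (mean 1.18), as its siR-GAL3 mean was 0.832. With no filter on low values EMILIN1 had an unadjusted p of 0.00537 (limma). Without siR-GAL3 2 it was the 1 gene of the 25 with an adjusted p under 0.05, at 0.0463 (limma, Benjamini-Hochberg), where 1.97% of all genes had one.

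FBLN1, encoding fibulin-1, which binds elastin and basement membrane proteins, lay at 2.73, 2.81 and 2.70 in siR-Con and at 2.19, 2.36 and 2.37 in siR-GAL3. Again the groups lay apart, by a smaller step of 16.1% between the means. The log2 fold change was -0.18 (unadjusted p = 0.0204, adjusted p = 0.499 in limma). The unadjusted p lay between 0.0539 and 0.0782 when siR-Con 1, siR-Con 2, siR-Con 3 or siR-GAL3 1 was left out.

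EFEMP2, encoding fibulin-4, which is needed for elastic fibre assembly, lay at 4.54, 3.53 and 3.44 in siR-Con and at 4.43, 4.67 and 4.73 in siR-GAL3. It was the most abundant elastic fibre gene, and siR-Con 1 fell within the siR-GAL3 range. Its log2 fold change of 0.22 did not pass the threshold (95% interval -0.012 to 0.46, unadjusted p = 0.0599, adjusted p = 0.577 in limma). MFAP2, a protein of microfibrils, had a log2 fold change of 0.073 (95% interval -0.29 to 0.44), and of -0.092 without siR-GAL3 2.

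Set against the rest of the matrix, ELN changed its place. On log2(value + 1), ELN minus the median of the 24 other genes tested was -0.27, -0.12 and -0.24 in the siR-Con libraries and 0.00, 0.29 and 0.52 in the siR-GAL3 libraries. ELN ranked 14, 16 and 16 from the top among the 25 genes in siR-Con and 13, 9 and 7 in siR-GAL3. Between the fitted values, the log2 fold change of ELN lay 0.62 above the median of the other 24, which was -0.21.

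Ratios to single partners restate the ELN values as well. The ratio of ELN to LOX, the lysyl oxidase that crosslinks it, was 1.82, 1.77 and 1.57 in siR-Con and 2.28, 2.40 and 2.96 in siR-GAL3. The ratio of ELN to FBLN1 went from 1.13 ± 0.0808 to 1.95 ± 0.335 (SD, n = 3 each), and the ratio to EMILIN1 from 2.64 ± 0.112 to 5.51 ± 1.67 (SD, n = 3 each). In each of these 3 ratios the groups did not overlap. None of the 3 is separate evidence, since LOX hardly differed between groups and FBLN1 and EMILIN1 are described above.

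**Figure D2:**
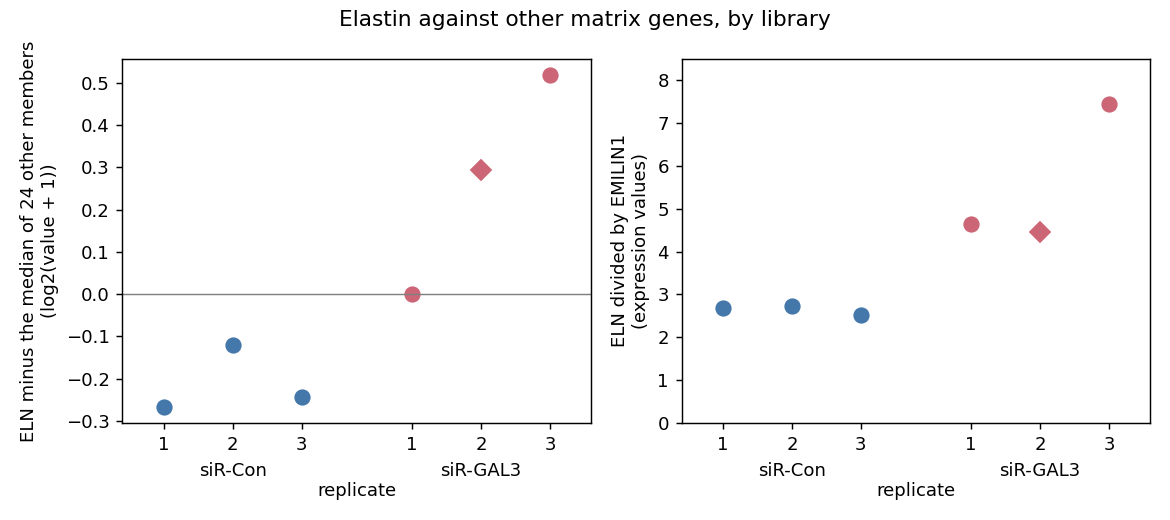
ELN minus the median of the 24 other matrix genes tested on log2(value + 1) (left) and ELN divided by EMILIN1 on the expression scale (right), by library, with siR-Con in blue, siR-GAL3 in red and siR-GAL3 replicate 2 as a diamond. The siR-Con libraries lie between -0.27 and -0.12 on the left and the siR-GAL3 libraries between 0.00 and 0.52, and on the right the ratios are at most 2.72 and at least 4.46.

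The crosslinking enzymes gave no gene under the threshold in the comparison of all 6 libraries. LOX lay at 1.84, 1.78 and 1.82 in siR-Con and at 1.73, 1.68 and 1.87 in siR-GAL3. The groups overlapped, and the 95% interval of its log2 fold change, -0.17 to 0.11, bounds the difference around the estimate of -0.029. LOXL2 had the highest mean of the 3 enzymes and lay at 2.27, 2.84 and 2.51 in siR-Con and at 2.35, 0.549 and 2.14 in siR-GAL3. Its log2 fold change of -0.48 (unadjusted p = 0.131, adjusted p = 0.59 in limma) became -0.13 without siR-GAL3 2. LOXL1, known for its part in elastic fibre upkeep, had a log2 fold change of -0.054 (95% interval -0.23 to 0.12), which became -0.12 without siR-GAL3 2 (unadjusted p = 0.0462, adjusted p = 0.298 in limma).

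Among the adhesive and matricellular genes, 5 of 6 were tested and all 5 had lower means. SPARCL1 and POSTN were under the threshold, where 4.25% of all genes tested were lower. SPARCL1, an abundant astrocytic protein that promotes synapse formation, had the highest level of the 39 genes, at 137, 146 and 139 in siR-Con and at 121, 112 and 111 in siR-GAL3. The groups were well apart relative to their spread, with means of 141 ± 4.81 and 115 ± 5.45 (SD, n = 3 each). Its log2 fold change was -0.29 (95% interval -0.46 to -0.13, unadjusted p = 0.00423, adjusted p = 0.272 in limma) and was under the unadjusted threshold in all 6 fits that left out a library. The 10 astrocyte markers also had a lower sum in siR-GAL3 (811 to 875) than in siR-Con (937 to 1077), and 8 of 10 had lower means. GFAP made up most of that sum, at 758, 638 and 571 in siR-Con and at 523, 533 and 515 in siR-GAL3. The sum therefore mainly follows GFAP, and the groups overlapped in AQP4, the next most abundant marker. The part of astrocytes in the SPARCL1 result was not tested.

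POSTN, encoding periostin of collagen-rich tissue and scars, lay at 5.05, 5.23 and 5.35 in siR-Con and at 4.53, 4.53 and 3.83 in siR-GAL3. Its groups did not overlap, and siR-GAL3 3 was lowest. The log2 fold change was -0.23 (unadjusted p = 0.0205, adjusted p = 0.499 in limma), and leaving out siR-Con 2, siR-Con 3 or siR-GAL3 3 gave an unadjusted p between 0.0624 and 0.0731.

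SPARC, a collagen-binding relative of SPARCL1, lay at 92.5, 91.0 and 95.2 in siR-Con and at 92.5, 69.0 and 82.6 in siR-GAL3. siR-Con 1 and siR-GAL3 1 held exactly the same value, so the groups met there. The log2 fold change was -0.20 (unadjusted p = 0.116, adjusted p = 0.59 in limma), and -0.087 without siR-GAL3 2. FN1, encoding fibronectin, and THBS2, a thrombospondin, had log2 fold changes of -0.19 and -0.013, which became 0.13 and 0.053 without that library.

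No small leucine-rich proteoglycan was under the threshold with all 6 libraries, and 3 of 6 were tested. BGN, encoding biglycan, lay at 8.13, 9.87 and 9.27 in siR-Con and at 8.05, 7.47 and 8.20 in siR-GAL3. Its groups overlapped, with a log2 fold change of -0.18 (95% interval -0.38 to 0.026). DCN, encoding the closely related decorin, lay at 4.50, 3.31 and 3.02 in siR-Con and at 4.07, 4.67 and 3.59 in siR-GAL3, a log2 fold change of 0.16 (95% interval -0.17 to 0.48), and of 0.079 without siR-GAL3 2. The ratio of BGN to DCN was 2.62 ± 0.709 in siR-Con and 1.95 ± 0.341 in siR-GAL3 (SD, n = 3 each), a difference within the spread of the libraries.

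LUM, encoding lumican of collagenous connective tissue, had the lowest fold change of the 3 proteoglycans and lay at 2.82, 4.39 and 3.70 in siR-Con and at 2.31, 3.25 and 1.58 in siR-GAL3. The groups overlapped in siR-Con 1 and siR-GAL3 2, and the log2 fold change was -0.47 (95% interval -0.95 to 0.001, unadjusted p = 0.0505, adjusted p = 0.574 in limma). Without siR-GAL3 2 it was -0.65 (unadjusted p = 0.0027, adjusted p = 0.0838 in limma).

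The basement membrane genes were lower as a group. Of 10 genes, 9 were listed and tested, and all 9 had a lower mean in siR-GAL3. LAMA2, LAMB1 and LAMC1 were under the threshold, where 4.25% of all genes tested were lower. The groups did not overlap in 7 of the 9, and 10.3% of all genes tested lay apart in the lower direction. The median log2 fold change was -0.38, and 8 of the 9 had their lowest value in siR-GAL3 2. Without that library 8 of the 9 were lower, 6 of them at an unadjusted p under 0.05, where 9.36% of all genes were lower and 6.98% higher at that threshold. The median then was -0.15, so the size depended on siR-GAL3 2 while the direction did not, except in AGRN.

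LAMC1, the gamma chain shared by most laminins, was by far the most abundant laminin chain, at 38.0, 37.9 and 40.3 in siR-Con and at 32.5, 13.2 and 28.7 in siR-GAL3. Every siR-GAL3 library was lower, and siR-GAL3 2 was far below the other libraries. The mean was 38.7 ± 1.38 in siR-Con and 24.8 ± 10.2 in siR-GAL3 (SD, n = 3 each). The log2 fold change was -0.72 (95% interval -1.43 to -0.004, unadjusted p = 0.049, adjusted p = 0.574 in limma). Without siR-GAL3 2 it was -0.33 with a smaller spread (unadjusted p = 0.00122, adjusted p = 0.0551 in limma). Leaving out siR-Con 1, siR-Con 2 or siR-Con 3 gave an unadjusted p between 0.0944 and 0.111.

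LAMA2, the alpha chain of that trimer, lay at 1.41, 1.75 and 1.61 in siR-Con and at 1.12, 0.782 and 0.989 in siR-GAL3. The groups did not overlap, and the mean was 39.4% lower. It had the smallest p of the 25 genes, with a log2 fold change of -0.40 (95% interval -0.61 to -0.20, unadjusted p = 0.00248, adjusted p = 0.232 in limma). It was under the unadjusted threshold in all 6 fits that left out a library. LAMA2 reached the minimum mean of 1 through siR-Con (1.59), as its siR-GAL3 mean was 0.96. With no filter on low values its unadjusted p was 0.0053 (limma).

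LAMB1, a beta chain, lay at 2.89, 3.49 and 3.32 in siR-Con and at 2.60, 2.90 and 2.42 in siR-GAL3. siR-GAL3 2 was just above siR-Con 1, so the groups overlapped, and here the library that stood apart was the highest of its group. The log2 fold change was -0.22 (unadjusted p = 0.0381, adjusted p = 0.541 in limma). The unadjusted p was between 0.0853 and 0.135 when siR-Con 2, siR-Con 3, siR-GAL3 1 or siR-GAL3 3 was left out.

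The remaining laminin chains and the nidogens lay apart between groups without passing the threshold. LAMA4, of vessel basement membranes, had a log2 fold change of -0.38 (unadjusted p = 0.0601, adjusted p = 0.577 in limma), and LAMA5, also common in vessels, one of -0.38 (unadjusted p = 0.117, adjusted p = 0.59 in limma). Their values in siR-GAL3 2 were 1.18 and 0.640, while the other siR-GAL3 libraries lay at 2.33 and 2.28 for LAMA4 and at 1.87 and 1.84 for LAMA5. LAMB2 had a log2 fold change of -0.20 (unadjusted p = 0.055, adjusted p = 0.577 in limma). Without siR-GAL3 2 these fold changes were -0.17 for LAMA4, -0.11 for LAMA5 and -0.13 for LAMB2, and the unadjusted p was 0.0228, 0.0538 and 0.0591 (limma), so LAMA4 was then under the threshold.

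NID1 lay at 7.59, 7.80 and 7.95 in siR-Con and at 7.09, 3.81 and 6.77 in siR-GAL3. Its log2 fold change was -0.39 (unadjusted p = 0.0845, adjusted p = 0.585 in limma), and that of NID2 was -0.28 (unadjusted p = 0.0599, adjusted p = 0.577 in limma). Both shrank without siR-GAL3 2, to -0.15 for NID1 and -0.14 for NID2, and the unadjusted p then was 0.018 and 0.0459. AGRN, encoding the proteoglycan agrin that clusters receptors at the neuromuscular junction, had a log2 fold change of -0.098 (95% interval -0.40 to 0.20), and of 0.044 without siR-GAL3 2.

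The summed level of the 6 laminin chains was 50.8, 52.2 and 54.4 in siR-Con and 44.2, 21.7 and 39.7 in siR-GAL3. LAMC1 made up most of this sum, and without it the sum was 12.8, 14.3 and 14.1 in siR-Con and 11.7, 8.53 and 11.0 in siR-GAL3. All 3 siR-GAL3 libraries were below the siR-Con libraries in both sums. The ratio of LAMC1 to LAMB1 was 13.1, 10.8 and 12.1 in siR-Con and 12.5, 4.55 and 11.9 in siR-GAL3, so siR-GAL3 2 differed from the other libraries in the balance of chains as well.

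**Figure D3:**
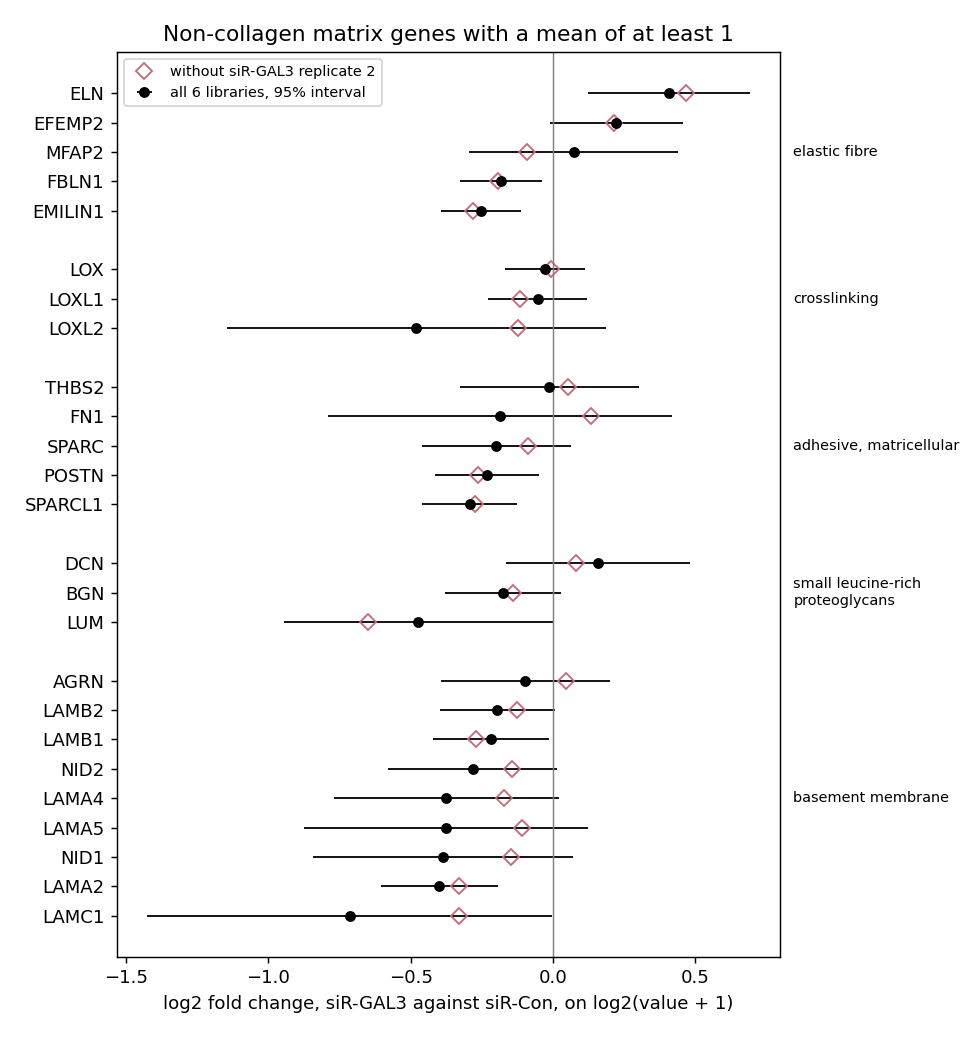
Log2 fold changes on log2(value + 1) (horizontal axis) of the 25 matrix genes tested, siR-GAL3 against siR-Con, ordered by role and size. Black points with bars are estimates from all 6 libraries with 95% intervals, and open diamonds are estimates without siR-GAL3 replicate 2. ELN stands at 0.41 and the basement membrane genes between -0.72 and -0.098, many of them nearer to 0 without that library.

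Across the 25 genes, 13 (52.0%) had their lowest value in siR-GAL3 2, as did 35.1% of all genes tested. Without this library 19 were lower, 12 of them at an unadjusted p under 0.05, and ELN was again the 1 gene higher at that threshold. In that fit 9.36% of all genes were lower and 6.98% higher at the threshold, more than with all 6 libraries (4.25% and 4.41%). The median log2 fold change of the 25 was then -0.13. In each of the 2 sets of libraries joined by equal values there was 1 siR-GAL3 library, set against 1 siR-Con library or 2, so that no test was possible within a set. As a description of these same libraries, 15 genes (60.0%) were lower in siR-GAL3 both times, beside 28.5% of all genes tested. The 3 genes higher both times were ELN, FN1 and AGRN, beside 2165 of all 8495 genes tested. With the library set as a block, 10 were lower at an unadjusted p under 0.05, where 7.9% of all genes were, and 1 was higher, where 5.92% were. That fit pooled the differences within the 2 sets. As siR-GAL3 2 had a set of its own, it added nothing to the group difference there. The block fit is thus no check separate from the fit without siR-GAL3 2. In that limma fit none of the 25 had an adjusted p under 0.05, and 1.25% of all genes did.

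The 12 listed genes below the minimum had means from 0.0021 to 0.976. They were FBN1, FBN2, FBLN2, FBLN5, EFEMP1, MFAP5, LTBP1 and LTBP2 of the elastic fibre, THBS1, and the proteoglycans FMOD, OGN and PRELP. FBN1, the main microfibril protein, was nearest to the minimum and lay at 1.06, 1.13 and 1.11 in siR-Con and at 1.06, 0.554 and 0.960 in siR-GAL3, again with the same value in siR-Con 1 and siR-GAL3 1. OGN held values slightly below 0 and the same values in 2 pairs of libraries.

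In 5 of these 12 genes, named after their values were seen, the groups did not overlap, 3 of them lower and 2 higher. Of all 9153 genes below the minimum, 5.65% lay apart in the lower direction and 7.86% in the higher. FMOD, encoding fibromodulin, was higher in siR-GAL3 at 0.228 ± 0.0117 than in siR-Con at 0.111 ± 0.0079 (SD, n = 3 each). FBN2, the fibrillin most used in development, was lower at 0.254 ± 0.0665 than 0.520 ± 0.069 (SD, n = 3 each). With no filter on low values, limma gave FMOD an unadjusted p of 3.08e-05 (adjusted p = 0.211) and FBN2 one of 0.00239 (adjusted p = 0.287). THBS1 and PRELP were lower and LTBP2 was higher, and the levels of these 5 genes were at most 1.09 in any library.

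Matrix genes outside the 39 were also more often lower than higher. Of a list of 50, 45 were listed and 12 tested, with 3 higher, 9 lower and a median log2 fold change of -0.13. At an unadjusted p under 0.05 there were 3, all lower: LTBP4, a partner of elastic fibre assembly (-0.32, adjusted p = 0.215 in limma), SPOCK2, encoding testican-2 (-0.44, adjusted p = 0.44), and MFAP3L (-0.42, adjusted p = 0.499). Of all genes tested, 4.25% were lower at that threshold. Without siR-GAL3 2 the log2 fold changes of these 3 genes were -0.30, -0.29 and -0.27. LTBP4 lay at 5.96 ± 0.310 in siR-Con and at 4.56 ± 0.149 in siR-GAL3 (SD, n = 3 each). Of 21 matrix receptors and genes of TGF-beta signalling, 18 were tested, 6 were higher and 12 lower with a median of -0.044. The 1 gene among them at an unadjusted p under 0.05 was TGFB2, a TGF-beta ligand, with a log2 fold change of -0.23 (adjusted p = 0.507 in limma).

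Markers of matrix-forming cells were lower in siR-GAL3 as well. The 11 listed of 12 fibroblast and meningeal markers summed to 43.8 to 51.6 in siR-Con and to 33.0 to 38.6 in siR-GAL3. All 6 tested were lower, 4 of them at an unadjusted p under 0.05, where 4.25% of all genes tested were. COL1A1 lay at 19.2 ± 1.70 in siR-Con and 14.1 ± 1.86 in siR-GAL3, and COL3A1 at 19.2 ± 2.07 and 13.2 ± 1.49 (SD, n = 3 each). These collagens are matrix genes themselves and made up most of the sum, so the sum does not measure the cells apart from matrix RNA. COL1A2 was not listed, and TCF21 was below 0.1. Without siR-GAL3 2 all 6 were lower at that threshold, where 9.36% of all genes were. The part of these cells in the lower matrix levels was not tested, and in bulk RNA fewer cells of a type and less RNA per cell cannot be told apart. ELN, known as a product of fibroblasts and smooth muscle, was higher in siR-GAL3, and which cells made it here was not tested.

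Markers of vessel cells were low in both groups. Of 10 endothelial markers, PECAM1 and CLDN5 were not found in the matrix, and the other 8 summed to 1.51 to 1.75 in siR-Con and to 1.57 to 1.76 in siR-GAL3, with none at a mean of 1. Of the 8, TEK, FLT1, VWF and ERG were below 0.1. The 8 mural markers, of pericytes and smooth muscle, summed to 5.88 to 6.05 and to 5.74 to 7.57, with RGS5, ABCC9, KCNJ8 and ACTA2 below 0.1. Of the 2 mural genes tested, TAGLN was higher (0.30, unadjusted p = 0.0452, adjusted p = 0.568 in limma), and at 0.16 without siR-GAL3 2. NOTCH3 was lower (-0.34, unadjusted p = 0.00339, adjusted p = 0.262 in limma). It reached the minimum mean of 1 through siR-Con (mean 1.34), as its siR-GAL3 mean was 0.847, so the filter favoured a lower call.

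The glial lists moved in different directions. The 16 microglia markers summed to 149 to 175 in siR-Con and to 191 to 213 in siR-GAL3. Of the 15 tested, 14 were higher, 8 of them at an unadjusted p under 0.05, where 4.41% of all genes tested were. The oligodendrocyte list summed to 1076 to 1140 and to 1084 to 1409, the Schwann cell list to 54.8 to 56.4 and to 49.3 to 57.0, the ependymal list to 4.34 to 4.90 and to 4.32 to 5.93, and the neuron list to 42.9 to 48.0 and to 44.3 to 49.2, so groups overlapped in these 4. The part of any of these cells in the ELN result was not tested.

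**Figure D4:**
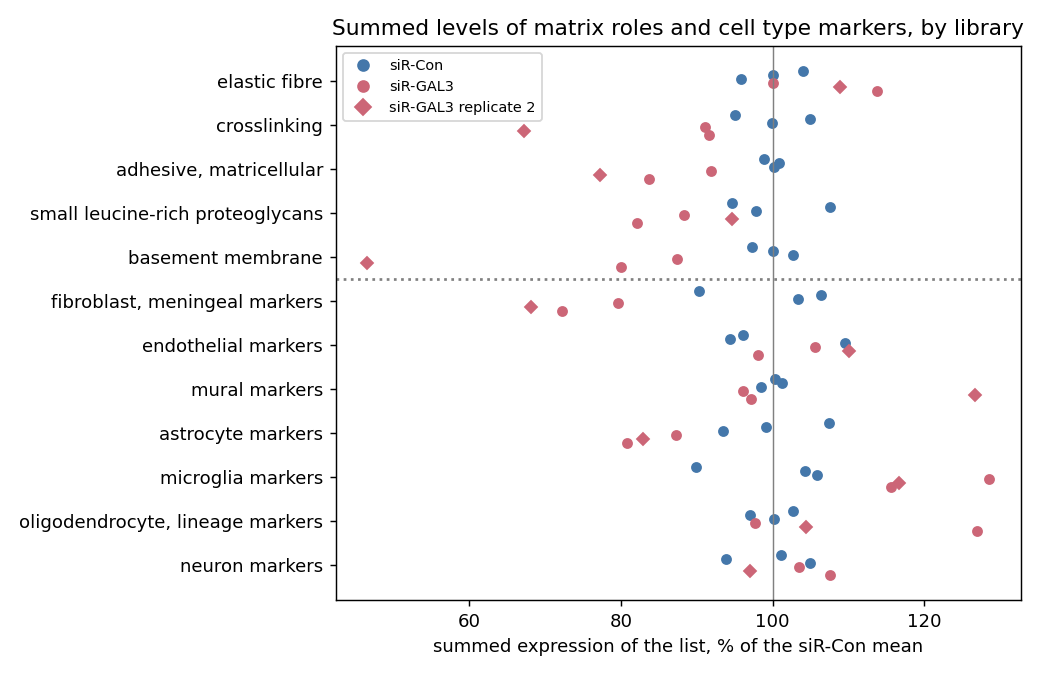
Summed expression of the listed genes of each matrix role (above the dotted line) and of cell type marker lists (below it), as a percentage of the siR-Con mean (horizontal axis), by library, with siR-Con in blue, siR-GAL3 in red and siR-GAL3 replicate 2 as a diamond. The basement membrane sum was 69.7 to 73.5 in siR-Con and 33.3 to 62.5 in siR-GAL3, and the fibroblast and meningeal sum was also lower in every siR-GAL3 library, whereas the elastic fibre sum overlapped (15.7 to 17.0 and 16.4 to 18.6).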

How the data were processed

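The authors aligned reads with STAR, counted them per gene with HTSeq and estimated FPKM. Removal of batch effects, standardization and a correction of differences within groups followed. The deposited values were the resulting linear expression values, not plain FPKM, with 2376 of 17648 rows holding a value below 0. The genome build is not given in the sources used here, and the sources differ on RNA selection (ribosomal depletion or poly-T) and instrument.

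Negative values were replaced by 0. The 8495 genes reaching a mean of 1 were fitted on log2(value + 1) with limma 3.58.1 (intensity trend) in R 4.3.3, with Benjamini-Hochberg adjustment over all of them. The fit was tested on simulated data. Single genes were also compared by exact permutation (SciPy 1.17.1). Members and gene lists were chosen with earlier results of these data known. Genes named were ELN, members with an unadjusted p under 0.05 or without overlap, the 2 most abundant per role, up to 3 of each list of other matrix genes by smallest p, and the 2 most abundant markers of a cell type. The remaining members were named after their values were seen. Alternatives were other pseudocounts, filters, scalings, blocks, no logarithm and each library left out.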

Additional observations from a re-analysis of the deposited data

How the results depend on the processing

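Across the single genes tested other than ELN, 342 refits gave 286 with the same direction and side of the threshold. Of the rest, 25 newly passed it, 21 no longer did and 10 had the opposite sign, all 10 in genes not under the threshold. Without siR-GAL3 2 the log2 fold changes of opposite sign were those of MFAP2 (-0.092), FN1 (0.13), THBS2 (0.053) and AGRN (0.044). With the library set as a block they were -0.068, 0.11, 0.026 and 0.029 for the same genes, and without siR-Con 1 they were -0.015 for MFAP2 and 0.11 for THBS2. Over the fits that left out a library, MFAP2 ranged from -0.092 to 0.16, FN1 from -0.36 to 0.13, THBS2 from -0.14 to 0.11 and AGRN from -0.19 to 0.044. With a mean of at least 5, 1 gene had an unadjusted p under 0.05 and 3 did not overlap, since fewer genes were tested, and ELN gave no value there. Without the logarithm, 2 genes had an unadjusted p under 0.05 and a difference above 1, which there is a difference in expression units and not a fold change. With each library left out in turn, between 4 and 13 genes had an unadjusted p under 0.05 and between 0 and 1 an adjusted p under 0.05 (limma). Both upper counts came without siR-GAL3 2, where 9.36% of all genes were lower and 6.98% higher at the unadjusted threshold. In that fit 1.97% of all genes had an adjusted p under 0.05. The cause of the difference was not tested. With the replicate block, 6 genes were under the threshold in place of 8, and ELN kept a log2 fold change of 0.41 (unadjusted p = 0.0218). The deviations of libraries from the mean of their own group, not the expression levels, were correlated between groups. For libraries with the same number these correlations were -0.17, -0.07 and 0.044, so the numbers were not taken to pair them. By this measure not every library correlated best with its own number. Depth is unknown, and 3 libraries a group limit the precision.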
